A study of Homo sapiens with 60 samples.

Results

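Kinesins are motor proteins that walk along microtubules, the tubulin tracks of the cell, by splitting ATP. One set of family members works at cell division: these mitotic kinesins push spindle poles apart, move and align chromosomes, shorten microtubule ends and build the midzone at which the daughter cells part, and their mRNAs peak around mitosis in dividing cells. Another set carries vesicles, organelles and ciliary cargo throughout the cell cycle. The 42 genes described here are those whose symbol has the form KIF plus a number with or without a letter, or KIFC1 to KIFC3, out of 60675 genes in the deposited table. By their best known role 14 were counted as mitotic, 15 as transport and 13 as other kinesins.

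The RNA came from a long-established line of human colorectal adenocarcinoma cells, HT29, 24 h after treatment. Wortmannin and LY294002, each at 10 µM, inhibit phosphatidylinositol 3-kinase (PI3K) and were the positive controls. The other treated cells received 1 of 6 water extracts at 20, 100 or 500 µg/mL by the labels. The extracts were made from Poria Cocos, Atractylodis Rhizoma, Glycyrrhizae Radix (licorice), Panax Ginseng, Angelicae Gigantis Radix or Paeoniae Radix. The text on the series adds that extracts with an IC20 below the top dose were given at the IC20 and at dilutions of it, without naming them, so a labelled dose may stand for such a dose. Vehicle cells received DMSO, at 0.1% by the sample labels and at 2% by the text on the series. The labels give no DMSO level for the treated cells. Whether extract and vehicle cells also differed in solvent cannot be told from them. Of the 21 groups 18 had 3 libraries and the 3 Paeoniae groups had 2, which makes 60 libraries of 20431980 to 35477712 counts. Nothing states that the replicates came from different cultures, so p-values measure only the spread between these libraries, which may be technical. All 60 titles carry the same batch label, BatchA. The first number of the sample codes is shared by vehicle and both inhibitors, although the vehicle codes alone have the letter A before it, and further by Poria and Atractylodis, by Glycyrrhizae and Ginseng, and by Angelicae and Paeoniae. What that number and letter stand for is not stated. An extract and its code set therefore cannot be told apart when the extract is set against vehicle. An inhibitor set against vehicle likewise cannot be told apart from whatever the letter stands for. The comparison of 500 with 20 µg/mL of an extract stays within a set.

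Of the 42 kinesins 33 had counts high enough for the test. The 9 others were KIF2B, with no count, and KIF4B among the mitotic members, KIF17, KIF1A, KIF5A and KIF5C among the transport members, and KIF25, KIF26A and KIF6 among the rest. KIF4B had 145 counts over 60 libraries and is a near-identical retrogene of KIF4A, so its counts are uncertain. KIF1A, KIF5A and KIF5C, the motors best known from neurons, had 9, 59 and 21 counts over all libraries.

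The promoters are shown first because the mitotic members shared letters there that the choice of genes did not use. RefSeq promoter windows on GRCh38.p14 were found for 34 of the 42 genes (43 windows), and the stretch from 100 bases before to 30 bases after the gene start is given, 5′ to 3′ on the gene's strand. Capitals mark CHR (cell cycle genes homology region) letters, TTTGAA or TTTAAA, and the CCAAT box, on either strand, so that TTCAAA and ATTGG are the same motifs read from the other strand. As background, the CHR is where the DREAM and MYBL2 or FOXM1 complexes contact many genes of late cell cycle, and CCAAT is bound by NF-Y. The mitotic kinesins that were named for LY294002 are these.
KIF18B, chr17:44947744-44947873, minus strand: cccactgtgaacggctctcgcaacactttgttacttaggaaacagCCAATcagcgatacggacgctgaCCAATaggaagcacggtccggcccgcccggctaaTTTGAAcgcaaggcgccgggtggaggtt
KIF18A, chr11:28108127-28108256, minus strand: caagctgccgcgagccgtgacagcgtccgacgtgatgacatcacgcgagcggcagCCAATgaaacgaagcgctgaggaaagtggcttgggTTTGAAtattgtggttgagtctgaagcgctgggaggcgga
KIF14, chr1:200620722-200620851, minus strand: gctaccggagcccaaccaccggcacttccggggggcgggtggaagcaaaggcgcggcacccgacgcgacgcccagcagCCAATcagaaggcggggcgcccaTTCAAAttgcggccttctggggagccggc
KIF4A, chrX:70290004-70290133, plus strand: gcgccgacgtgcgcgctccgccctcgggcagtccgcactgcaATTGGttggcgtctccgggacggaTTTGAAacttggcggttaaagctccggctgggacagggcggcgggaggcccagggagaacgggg
KIF20B, chr10:89701490-89701619, plus strand: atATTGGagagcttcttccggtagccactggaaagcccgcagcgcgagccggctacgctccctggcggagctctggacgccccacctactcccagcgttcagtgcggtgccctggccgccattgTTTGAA
KIF20A, chr5:138179012-138179141, plus strand: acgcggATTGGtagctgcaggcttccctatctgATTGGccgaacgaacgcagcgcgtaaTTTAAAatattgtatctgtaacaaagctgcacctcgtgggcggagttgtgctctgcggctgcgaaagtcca
KIF2C, chr1:44739737-44739866, plus strand: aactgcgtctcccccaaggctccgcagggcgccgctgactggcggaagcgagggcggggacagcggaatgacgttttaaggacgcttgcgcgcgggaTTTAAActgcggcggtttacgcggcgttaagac
KIF22, chr16:29790651-29790780, plus strand: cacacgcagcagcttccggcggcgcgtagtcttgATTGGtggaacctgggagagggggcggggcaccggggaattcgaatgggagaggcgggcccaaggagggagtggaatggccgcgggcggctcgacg
KIF22 (second start), chr16:29790868-29790997, plus strand: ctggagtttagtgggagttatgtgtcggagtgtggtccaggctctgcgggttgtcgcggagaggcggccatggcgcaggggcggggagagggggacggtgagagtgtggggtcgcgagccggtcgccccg

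CHR letters were present in this stretch in 12 of 14 mitotic genes, in 0 of 11 transport genes and in 0 of 9 other kinesin genes that had a window, while 10.1% of all 35116 promoters held them. CCAAT was present in 11 of 14 mitotic, 2 of 11 transport and 3 of 9 other kinesin genes, against 20.1% of all promoters. Both motifs stood together in 10 of 14 mitotic genes and in 2.3% of all promoters. KIF22 lacked CHR letters in both of its windows and KIF2C lacked CCAAT. In the sequences shown, the CHR of KIF18A lay 10 to 5 bases before the start and that of KIF4A 34 to 29 bases before it. The 4 transport or other kinesins of the same comparison that had a window are set beside them, 1 of them with a pair of starts.
KIF12, chr9:114099263-114099392, minus strand: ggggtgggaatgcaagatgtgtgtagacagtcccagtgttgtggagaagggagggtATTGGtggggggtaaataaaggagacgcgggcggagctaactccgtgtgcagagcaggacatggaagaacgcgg
KIF12 (second start), chr9:114099037-114099166, minus strand: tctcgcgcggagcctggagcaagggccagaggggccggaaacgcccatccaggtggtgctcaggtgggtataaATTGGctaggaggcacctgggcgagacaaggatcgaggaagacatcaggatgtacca
KIF24, chr9:34329239-34329368, minus strand: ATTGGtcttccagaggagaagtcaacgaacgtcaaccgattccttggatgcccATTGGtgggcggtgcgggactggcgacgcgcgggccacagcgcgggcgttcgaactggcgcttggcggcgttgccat
KIF3A, chr5:132737517-132737646, minus strand: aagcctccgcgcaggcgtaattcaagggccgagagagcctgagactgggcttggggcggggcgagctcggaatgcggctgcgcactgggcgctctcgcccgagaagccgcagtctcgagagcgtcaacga
KIF7, chr15:89655438-89655567, minus strand: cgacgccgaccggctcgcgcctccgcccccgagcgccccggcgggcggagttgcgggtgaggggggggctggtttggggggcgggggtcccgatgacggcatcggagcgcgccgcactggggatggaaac
KIF3A and KIF7 held neither motif in this stretch. KIF24 and KIF12 held CCAAT and no CHR letters. These are matches of letters, and no binding was measured.

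Per length, the most abundant kinesin in vehicle cells was a transport motor. KIF5B (ENSG00000170759, chromosome 10, 32009010 to 32056431, minus strand, GRCh38), the conventional kinesin heavy chain, had 50.4 ± 1.1 CPM (counts scaled to library size) per kilobase of exon (SD, n = 3). KIF3B, a heterotrimeric kinesin subunit, followed with a level of 27.4 ± 0.16 CPM per kilobase. KIF11 (ENSG00000138160, chromosome 10, 92593286 to 92655395, plus strand), the motor that slides spindle microtubules apart, was the most abundant mitotic member at 22.4 ± 0.78 CPM per kilobase and overlapped with KIF1C, a vesicle motor, at 22.1 ± 0.067.

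Per kilobase of exon, the upper end of the order of levels was mostly mitotic. After KIF11 and KIF1C came KIFC1, a minus-end motor that gathers spindle poles, at a level of 20.8 CPM per kilobase, the microtubule depolymerase KIF2C at 19.8 and the chromosome arm motor KIF22 at 19.1. The midzone and cytokinesis motors KIF20B, KIF23, KIF4A and KIF20A formed a run in which each overlapped the next, with levels of 17.7, 17.5, 17.4 and 16.9 CPM per kilobase. Of the first 12 kinesins by this level 8 were mitotic, 3 transport and 1 other, the depolymerase KIF2A. KIF18B had 11.8, KIF18A 8.55, KIF14 6.32 and KIF15 4.84 CPM per kilobase, and the lowest of the tested members were KIF19 at 0.116 and KIF26B at 0.112. Among 32 neighbours in this order 13 overlapped between the 3 vehicle libraries. The order depends on the length used, which merges all annotated exons of a gene. Without division by length, KIF20B had 116, 121 and 126 CPM in vehicle and KIF23 had 117, 111 and 117, against 113, 107 and 106 for KIF11.

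Every tested mitotic kinesin was lower after both PI3K inhibitors, and for 11 of 12 the direct comparison called a larger drop after LY294002. Differences are log2 fold changes ± SE from edgeR's quasi-likelihood test, called at a Benjamini-Hochberg adjusted p under 0.05 over 16767 genes. After wortmannin 12 of 12 tested mitotic kinesins were called lower, with a median of −0.37 and a range of −0.52 to −0.21, where 7.46% of all tested genes were called lower and 6.26% higher. After LY294002 again 12 of 12 were called lower, with a median of −0.64 and a range of −0.85 to −0.57, where 20.5% of all tested genes were called lower and 18.7% higher. In both comparisons the inhibitor libraries lay below all vehicle libraries for each of the 12. The share of all tested genes separated in this way is not given here. Both comparisons use the same 3 vehicle libraries. The median over all tested genes lay between −0.009 and 0.007 in all comparisons of the study. In bulk libraries fewer cells in mitosis and less of these mRNAs per cell cannot be told apart.

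**Figure D1:**
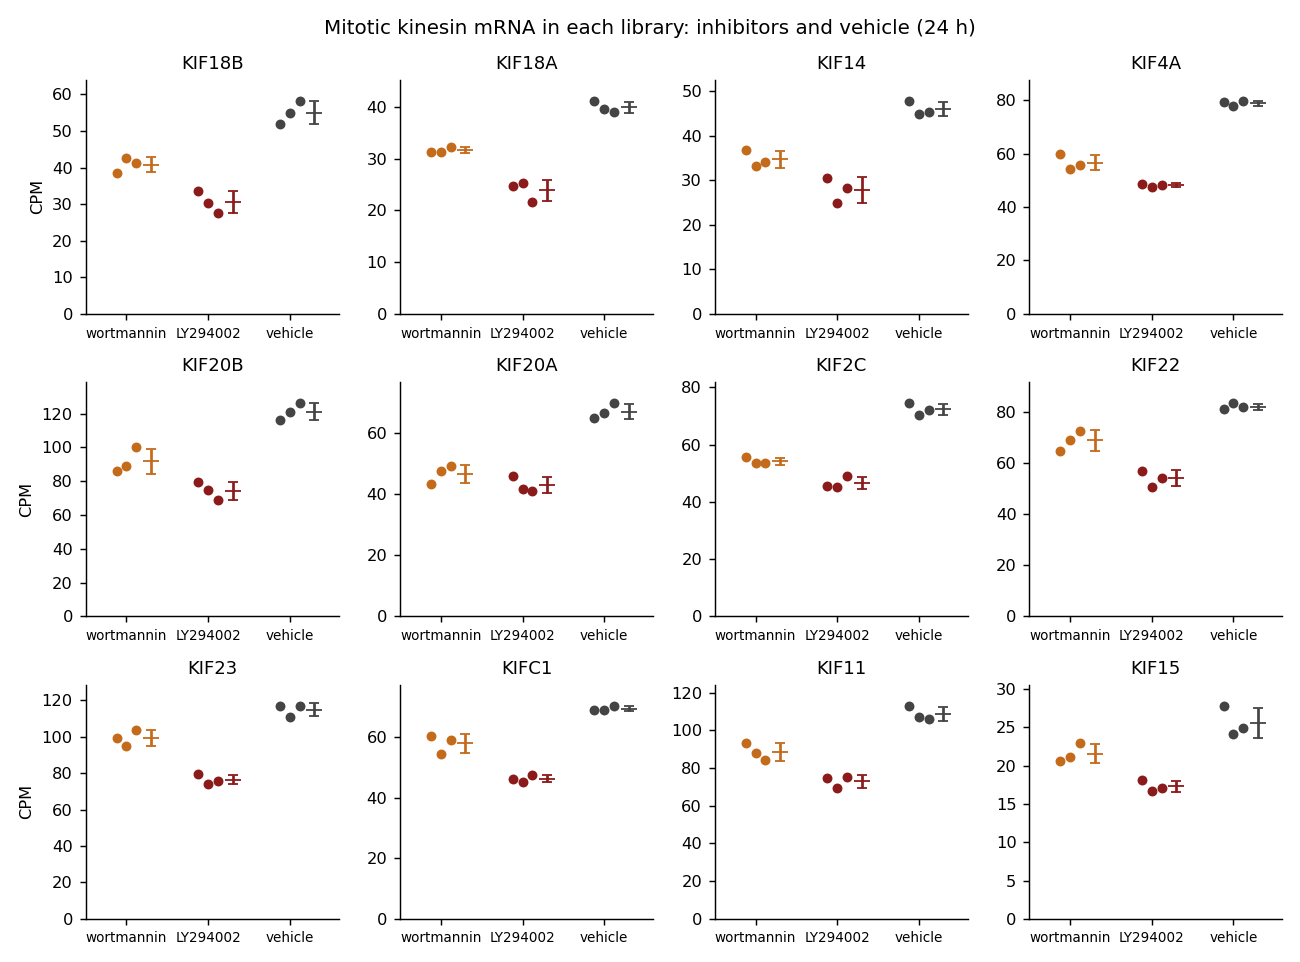
CPM of tested mitotic kinesins in each library (points) after wortmannin, LY294002 and vehicle, with group mean ± SD beside them, on axes that start at 0. All wortmannin and LY294002 points lie below all vehicle points in each panel, for example KIF18B at 27.5 to 33.5 CPM after LY294002 and 52 to 58.2 CPM in vehicle.

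The motors that shorten or cap microtubule ends fell by large amounts. KIF18B (ENSG00000186185, chromosome 17, 44924709 to 44947711, minus strand), which trims astral microtubules, had 38.5, 42.6 and 41.2 CPM after wortmannin and 33.5, 30.4 and 27.5 CPM after LY294002, against 52, 54.9 and 58.2 CPM in vehicle. Its log2 fold change was −0.43 for wortmannin and −0.85 ± 0.06 (adjusted p = 8.68e-16) for LY294002, the largest drop of any mitotic kinesin there. KIF18A, which dampens the swinging of chromosomes at metaphase, had 31.3, 31.2 and 32.3 CPM after wortmannin and 24.6, 25.3 and 21.6 CPM after LY294002, against 41.1, 39.6 and 39 CPM in vehicle. That is −0.34 for wortmannin and −0.74 ± 0.06 for LY294002 (adjusted p = 1.33e-14). For both genes the 3 groups were fully separated, with LY294002 lowest. KIF2C, the depolymerase that corrects faulty kinetochore attachments, had 55.7, 53.5 and 53.5 CPM after wortmannin and 45.5, 45.1 and 49.2 CPM after LY294002, against 74.4, 70.5 and 72 CPM in vehicle, or −0.41 and −0.63.

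The motors of the midzone and of cytokinesis fell together with them. KIF20A, which brings the chromosomal passenger complex to the midzone, had 43.4, 47.4 and 49 CPM after wortmannin and 46, 41.8 and 41.1 CPM after LY294002, against 64.7, 66.6 and 69.6 CPM in vehicle. It had the largest drop after wortmannin, −0.52 ± 0.05 (adjusted p = 1.08e-10), and −0.64 after LY294002. The inhibitor groups overlap for this gene, unlike KIF18B and KIF18A. KIF4A, a chromatin-bound motor that limits midzone length, had 59.8, 54.3 and 55.9 CPM after wortmannin and 48.8, 47.4 and 48.4 CPM after LY294002, against 79.2, 77.9 and 79.7 CPM in vehicle. Its changes were −0.48 ± 0.04 (adjusted p = 3.75e-12) and −0.71 ± 0.04 (adjusted p = 1.31e-18). The 3 groups were again fully separated.

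KIF14, a partner of citron kinase in cytokinesis, had 36.8, 33.3 and 34 CPM after wortmannin and 30.5, 24.8 and 28.2 CPM after LY294002, against 47.8, 44.8 and 45.4 CPM in vehicle, or −0.41 and −0.73 ± 0.07. KIF20B (ENSG00000138182, chromosome 10, 89701610 to 89774939, plus strand), which acts late in cytokinesis, had 86.2, 89.2 and 100 CPM after wortmannin and 79.5, 74.5 and 68.7 CPM after LY294002, against 116, 121 and 126 CPM in vehicle, or −0.40 and −0.71. KIF23 (ENSG00000137807, chromosome 15, 69414246 to 69448427, plus strand), the motor of the centralspindlin complex, had 99.5, 95.1 and 104 CPM after wortmannin and 79.4, 74.2 and 75.9 CPM after LY294002, against 117, 111 and 117 CPM in vehicle. Its changes were −0.21 ± 0.04 (adjusted p = 0.000423), the smallest of the 12 after wortmannin, and −0.59. In each of these 3 genes wortmannin lay between LY294002 and vehicle with no overlap.

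The motors that build the bipolar spindle were also lower. KIF11 had 93.4, 88 and 84.2 CPM after wortmannin and 74.6, 69.2 and 75.2 CPM after LY294002, against 113, 107 and 106 CPM in vehicle. Its changes were −0.29 ± 0.05 (adjusted p = 8.71e-06) and −0.57 ± 0.05 (adjusted p = 7.34e-14). KIF15, which can back up KIF11, changed by −0.25 (adjusted p = 0.00606) after wortmannin and −0.57 after LY294002. The wortmannin call on KIF15 was lost without vehicle replicate 1 (−0.19, adjusted p = 0.0854) and without wortmannin replicate 1 (adjusted p = 0.05), while the other 11 mitotic calls for wortmannin and all 12 for LY294002 were kept without any single library. KIFC1 and KIF22 changed by −0.58 and −0.60 after LY294002.

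The transport kinesins were called in both directions. After wortmannin 1 of 11 was called higher and 1 lower, with a median of 0.02, where 6.26% of all tested genes were called higher and 7.46% lower. After LY294002 4 were called higher and 2 lower, with a median of 0.03, where 18.7% of all tested genes were called higher and 20.5% lower. The counts after wortmannin and the count lower after LY294002 are near these shares, so the values of single members are given. The heterotrimeric kinesin subunit KIF3A (ENSG00000131437, chromosome 5, 132692628 to 132737638, minus strand), which also drives transport into cilia, had 32.6, 30.7 and 29.6 CPM after wortmannin and 41.6, 44.4 and 45.2 CPM after LY294002, against 29.5, 29.5 and 27.6 CPM in vehicle. It rose by 0.60 ± 0.05 after LY294002 (adjusted p = 3.19e-14), with a gap of several CPM to every other library of these groups. Its partner KIF3B had 156, 161 and 169 CPM after wortmannin and 186, 175 and 175 CPM after LY294002, against 168, 166 and 167 CPM in vehicle. The change of 0.10 ± 0.03 after LY294002 (adjusted p = 0.0186) was lost without LY294002 replicate 1 (0.07, adjusted p = 0.161) or vehicle replicate 2 (adjusted p = 0.0583).

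The minus-end motors KIFC3 and KIFC2 were higher. KIFC3, which in epithelial cells acts at cell junctions, had 26.1, 25.2 and 30.5 CPM after LY294002 and 19.5, 17.8 and 18.2 CPM in vehicle, a change of 0.56 ± 0.08 (adjusted p = 9.76e-08). KIFC2 had 10.3, 9.06 and 9.01 CPM after wortmannin and 12.2, 11.1 and 11.7 CPM after LY294002, against 6.06, 6.17 and 6.45 CPM in vehicle. It was called higher after both, by 0.60 ± 0.13 (adjusted p = 0.00107) and 0.90 ± 0.13 (adjusted p = 1.7e-07), without overlap of groups. KIFC2 shares 17.8% of its exon bases with FOXH1 on the opposite strand, which had 800 counts over all libraries where KIFC2 had 12514.

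The abundant cargo motors KIF5B and KIF1C were lower after LY294002, and KIF5B also after wortmannin. KIF5B had 265, 263 and 281 CPM after wortmannin and 254, 250 and 255 CPM after LY294002, against 294, 291 and 303 CPM in vehicle. Its drop was −0.23 ± 0.04 after LY294002 (adjusted p = 2.27e-06) and −0.13 ± 0.04 after wortmannin (adjusted p = 0.00956). The wortmannin call was lost without vehicle replicate 3, wortmannin replicate 1 or wortmannin replicate 2 (adjusted p = 0.0555, 0.0548 and 0.0642). KIF1C had 172, 162 and 165 CPM after LY294002 and 190, 190 and 189 CPM in vehicle, a drop of −0.19 ± 0.04 (adjusted p = 4.71e-05).

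Among the other kinesins the directions were mixed. After wortmannin 1 of 10 was called higher, near the 6.26% of all tested genes. After LY294002 3 were called higher and 4 lower, where 18.7% and 20.5% of all tested genes were. KIF24, a centriole protein that restrains cilium formation, had 23, 23 and 25.9 CPM after wortmannin and 16.9, 16.7 and 16.5 CPM after LY294002, against 25.7, 24.7 and 26.2 CPM in vehicle. Its drop after LY294002 was −0.61 ± 0.07 (adjusted p = 7.76e-10), within the range of the mitotic members. The microtubule regulator KIF21A and the depolymerase KIF2A changed by −0.37 and −0.34 after LY294002. KIF2A shares 8.97% of its exon bases with IPO11 on the same strand, which had 82066 counts over all libraries where KIF2A had 118144. KIF21B changed by −0.31 (adjusted p = 0.0108), a call lost without vehicle replicate 3 (adjusted p = 0.107), LY294002 replicate 2 (0.0504) or replicate 3 (0.0649).

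The other kinesins that were higher had low levels. KIF12 had 9.22, 8.62 and 11 CPM after wortmannin and 8.05, 8.86 and 12 CPM after LY294002, against 5.76, 5.1 and 7.38 CPM in vehicle. Its changes were 0.66 ± 0.20 (adjusted p = 0.019) and 0.67 ± 0.20 (adjusted p = 0.00552). The wortmannin call was lost without vehicle replicate 1, vehicle replicate 2 or wortmannin replicate 3 (adjusted p = 0.0696, 0.119 and 0.0867), and the LY294002 call without LY294002 replicate 3 (0.48, adjusted p = 0.0826). KIF7, a ciliary regulator of Hedgehog signalling, had 4.51, 4.62 and 5.1 CPM after LY294002 and 2.43, 4.23 and 2.92 CPM in vehicle, a change of 0.57 ± 0.14 (adjusted p = 0.000832). KIF7 shares 11.8% of its exon bases with TICRR on the opposite strand, which had 114040 counts over all libraries where KIF7 had 5841. The library kit keeps strand, but the strand setting of the counting is not given in the sources used here, so reads of the pair cannot be told apart. KIF9 changed by 0.27 (adjusted p = 0.0206), a call lost without vehicle replicate 2, LY294002 replicate 1 or LY294002 replicate 3, with adjusted p-values of 0.0689 to 0.0883.

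**Figure D2:**
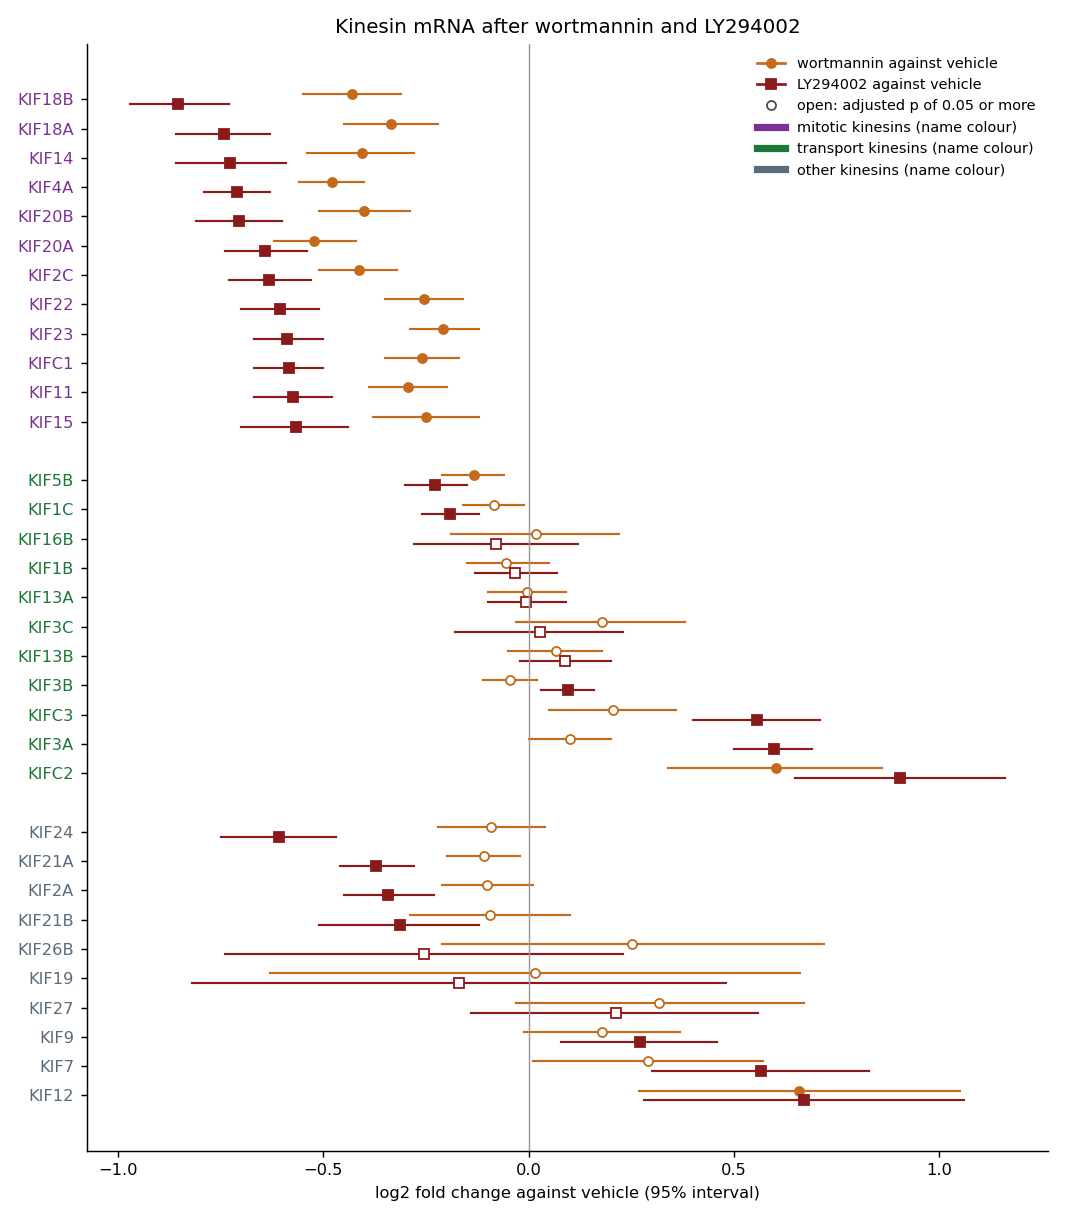
Log2 fold change against vehicle of the 33 tested kinesins after wortmannin and LY294002 (points, with 95% intervals as bars, open where not called), grouped as mitotic, transport and other. The mitotic points run from −0.52 to −0.21 for wortmannin and from −0.85 to −0.57 for LY294002, while the transport points lie on both sides of 0.

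Set directly against LY294002, wortmannin left more mitotic kinesin mRNA. Of the 12, 11 were called higher after wortmannin, with a median of 0.32 and a range of 0.12 to 0.42, where 12.7% of all tested genes were called higher and 9.49% lower. The largest differences were those of KIF18B at 0.42, KIF18A at 0.41 and KIF23 at 0.38. KIF20A was not called, at 0.12 (95% interval 0.01 to 0.22, adjusted p = 0.104), and its groups overlapped. Among the transport members KIF3A was lower by −0.50 (adjusted p = 2.14e-11), KIFC3 by −0.35 (adjusted p = 0.000467) and KIF3B by −0.14 (adjusted p = 0.00117) after wortmannin than after LY294002. KIF1C was higher by 0.11 (adjusted p = 0.0349), which was lost without wortmannin replicate 3 (adjusted p = 0.232), LY294002 replicate 2 (0.137) or LY294002 replicate 3 (0.1). Among the others KIF24 was higher by 0.52, KIF21A by 0.26 and KIF2A by 0.24, the last lost without LY294002 replicate 3 (0.15, adjusted p = 0.0507). KIFC2 and KIF5B were not called, with 95% intervals of −0.54 to −0.06 and 0.02 to 0.17.

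Summed over members, the mitotic level fell far more after the inhibitors than the transport level did. The mitotic sum was 693 ± 15.3 CPM after wortmannin and 561 ± 20 CPM after LY294002, against 881 ± 10.3 CPM in vehicle (SD, n = 3 each). The transport sum was 909 ± 19.1 CPM after wortmannin and 918 ± 12.3 CPM after LY294002, against 944 ± 3.6 CPM in vehicle. Its inhibitor libraries, at 893 to 930 and 905 to 929 CPM, all lay below the vehicle libraries, at 941 to 948 CPM. The ratio of mitotic to transport CPM was thus 0.761 to 0.765 over the wortmannin libraries and 0.603 to 0.628 over the LY294002 libraries, against 0.925 to 0.939 over the vehicle libraries. KIF5B alone made up 29.7% of the transport sum after wortmannin and 27.6% after LY294002, against 31.4% in vehicle. Sums of CPM weigh long and abundant mRNAs most and are given as a description.

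**Figure D3:**
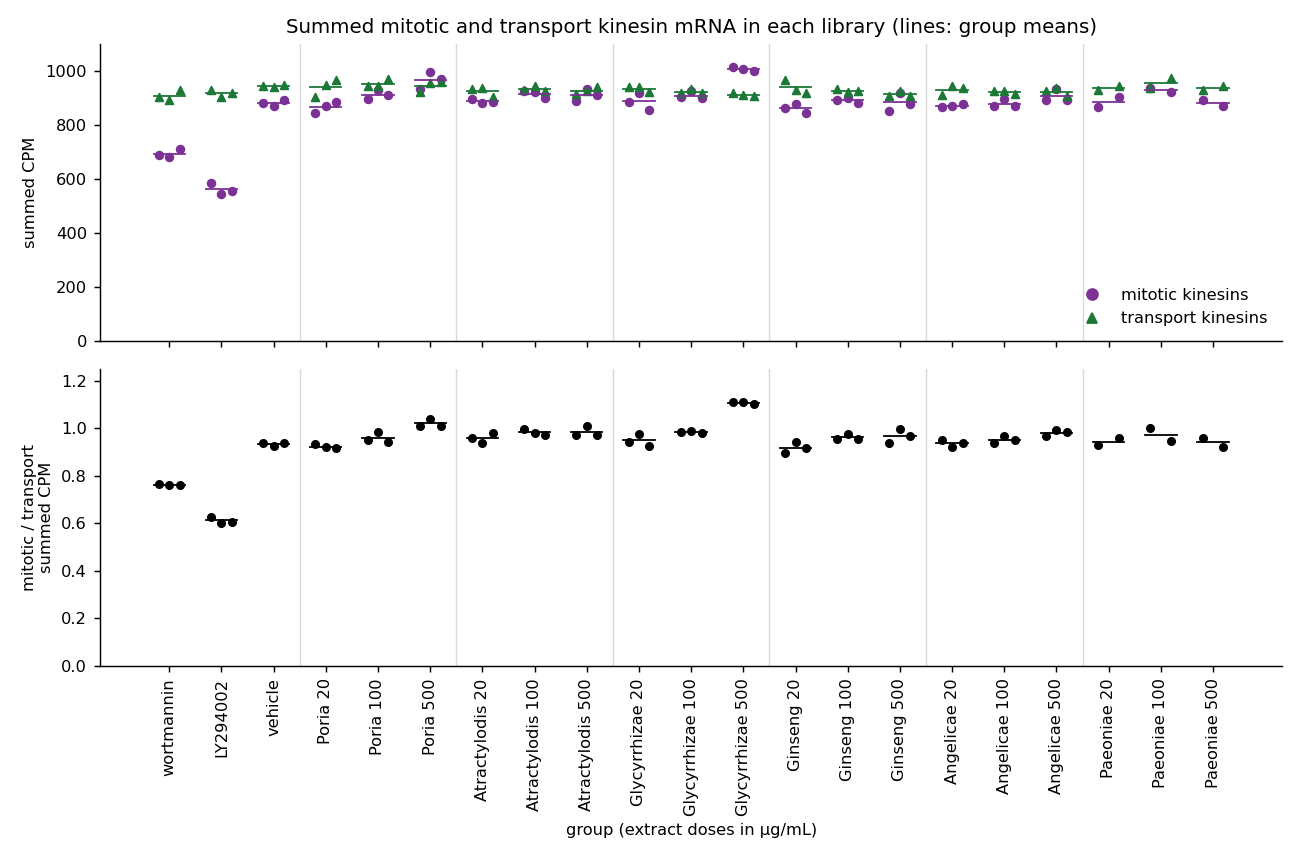
Summed CPM of the mitotic and of the transport kinesins, and their ratio, in each library of the 21 groups (points). The ratio is lowest in the LY294002 libraries, at 0.603 to 0.628, and highest in the Glycyrrhizae 500 µg/mL libraries, at 1.1 to 1.11, with vehicle at 0.925 to 0.939.

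At 500 µg/mL the Glycyrrhizae and Poria extracts went with higher mitotic kinesin levels, by small amounts. With Glycyrrhizae at 500 µg/mL 9 of 12 mitotic kinesins were called higher than in vehicle and 0 lower, with a median of 0.18 and a range of 0.07 to 0.27, where 3.65% of all tested genes were called higher and 3.26% lower. KIF2C had 90.2, 87.3 and 83.5 CPM with the extract and 74.4, 70.5 and 72 CPM in vehicle, a change of 0.27 ± 0.05 (adjusted p = 0.000259). KIF23 had 136, 134 and 138 CPM with the extract and 117, 111 and 117 CPM in vehicle, a change of 0.24 ± 0.04 (adjusted p = 0.000142). All extract libraries lay above all vehicle libraries for both genes. KIF11 and KIF22 rose by 0.20 each (adjusted p = 0.00328 and 0.00329), and these 4 were the mitotic calls kept without any single library. KIF14 at 0.25, KIF20A at 0.19, KIF20B and KIFC1 at 0.17 and KIF4A at 0.15 were called with adjusted p-values of 0.0116 to 0.0427.

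The vesicle motors KIF13A and KIF13B went the other way with Glycyrrhizae. KIF13A, which carries recycling endosomes, had 73.7, 77.8 and 74.8 CPM at 500 µg/mL and 87, 85.1 and 90.2 CPM in vehicle, a change of −0.21 ± 0.05 (adjusted p = 0.00266). KIF13B had 28.4, 31.2 and 29.6 CPM with the extract and 33.6, 35.9 and 35 CPM in vehicle, a change of −0.23 ± 0.06 (adjusted p = 0.0106). That call was lost without vehicle replicate 2 (adjusted p = 0.0606) or Glycyrrhizae 500 µg/mL replicate 1 (0.0761). KIF26B had 0.674, 0.783 and 0.513 CPM with the extract and 1.54, 1.15 and 2.17 CPM in vehicle, a change of −1.28 ± 0.28 (adjusted p = 0.00194) at a level near 1 CPM.

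With Poria at 500 µg/mL 4 of 12 mitotic kinesins were called higher than in vehicle and 0 lower, with a median of 0.12 and a range of −0.01 to 0.25, where 4.6% of all tested genes were called higher and 2.89% lower. KIF23 had 130, 140 and 139 CPM with the extract and 117, 111 and 117 CPM in vehicle, a change of 0.25 ± 0.04 (adjusted p = 7.73e-05), and was the 1 mitotic call kept without any single library. KIF2C rose by 0.19 (adjusted p = 0.0103), KIF22 by 0.16 (0.026) and KIFC1 by 0.13 (0.0484). The count of mitotic calls was 1 without vehicle replicate 2, and 2 without vehicle replicate 3 or Poria 500 µg/mL replicate 2. KIF13A had 73.4, 78.7 and 84.3 CPM with the extract and 87, 85.1 and 90.2 CPM in vehicle, a change of −0.15 (adjusted p = 0.0386). That call was lost when any of the 3 vehicle libraries was left out (adjusted p = 0.0663, 0.0524 and 0.195), without Poria 500 µg/mL replicate 1 (−0.10, adjusted p = 0.31) and without replicate 2 (adjusted p = 0.0823). KIF26B changed by −0.96 ± 0.27 (adjusted p = 0.0182). That call was lost without vehicle replicate 3 (−0.70, adjusted p = 0.208), Poria 500 µg/mL replicate 1 (−0.72, adjusted p = 0.157) or Poria 500 µg/mL replicate 3 (adjusted p = 0.0509). These comparisons share the vehicle libraries with those of Glycyrrhizae and of the inhibitors.

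Within each extract, 500 against 20 µg/mL keeps the code set fixed. With Glycyrrhizae 6 of 12 mitotic kinesins were called higher at 500 than at 20 µg/mL and 0 lower, with a median of 0.17 and a range of 0.12 to 0.27, where 1.83% of all tested genes were called higher and 2.02% lower. KIF20B had 132, 135 and 142 CPM at 500 µg/mL and 112, 118 and 110 CPM at 20 µg/mL, a change of 0.27 ± 0.05 (adjusted p = 0.00181), and was the 1 call kept without any single library. KIF20A changed by 0.23, KIF18A by 0.22, KIF22 by 0.19, KIF23 by 0.17 and KIF11 by 0.16, with adjusted p-values of 0.00404 to 0.0323. The count was 1 without Glycyrrhizae 20 µg/mL replicate 3 and 3 without Glycyrrhizae 500 µg/mL replicate 3. KIF13B was lower at 500 than at 20 µg/mL by −0.24 ± 0.06 (adjusted p = 0.0123), a call lost without Glycyrrhizae 500 µg/mL replicate 1 or 3 or 20 µg/mL replicate 3.

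With Poria 3 of 12 mitotic kinesins were called higher at 500 than at 20 µg/mL and 0 lower, with a median of 0.13, where 3.21% of all tested genes were called higher and 2.3% lower. KIF23 had 130, 140 and 139 CPM at 500 µg/mL and 111, 114 and 123 CPM at 20 µg/mL, a change of 0.24 ± 0.04 (adjusted p = 0.00016). KIF20B changed by 0.22 (adjusted p = 0.00883) and KIF22 by 0.18 (adjusted p = 0.0131). KIF12 changed by −0.66 (adjusted p = 0.0486), a call lost when any of 5 libraries was left out. The mitotic count was 5 without Poria 500 µg/mL replicate 1, the library with the lowest mitotic sum of its group at 932 CPM, and 1 without Poria 500 µg/mL replicate 2, the highest at 995 CPM.

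Across the 3 doses the group means climbed at the top dose. KIF23 averaged 116, 124 and 137 CPM at 20, 100 and 500 µg/mL of Poria, and 121, 121 and 136 CPM with Glycyrrhizae. KIF20B averaged 113, 124 and 132 CPM with Poria and 113, 120 and 136 CPM with Glycyrrhizae, where the vehicle libraries had 116, 121 and 126 CPM. KIF2C averaged 74.9, 77.4 and 82.5 CPM with Poria and 78, 77.2 and 87 CPM with Glycyrrhizae. The order was turned round for KIF13A, at 83.8, 77.7 and 75.4 CPM with Glycyrrhizae, and for KIF13B, at 35, 32.9 and 29.7 CPM. At 500 µg/mL the mitotic sum was 1007 ± 7.47 CPM with Glycyrrhizae and 966 ± 31.4 CPM with Poria, against 881 ± 10.3 CPM in vehicle. The ratio of mitotic to transport CPM was 1.1 to 1.11 with Glycyrrhizae and 1.01 to 1.04 with Poria at that dose. It was 0.894 to 1.01 over the 45 libraries of the other 16 extract groups.

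**Figure D4:**
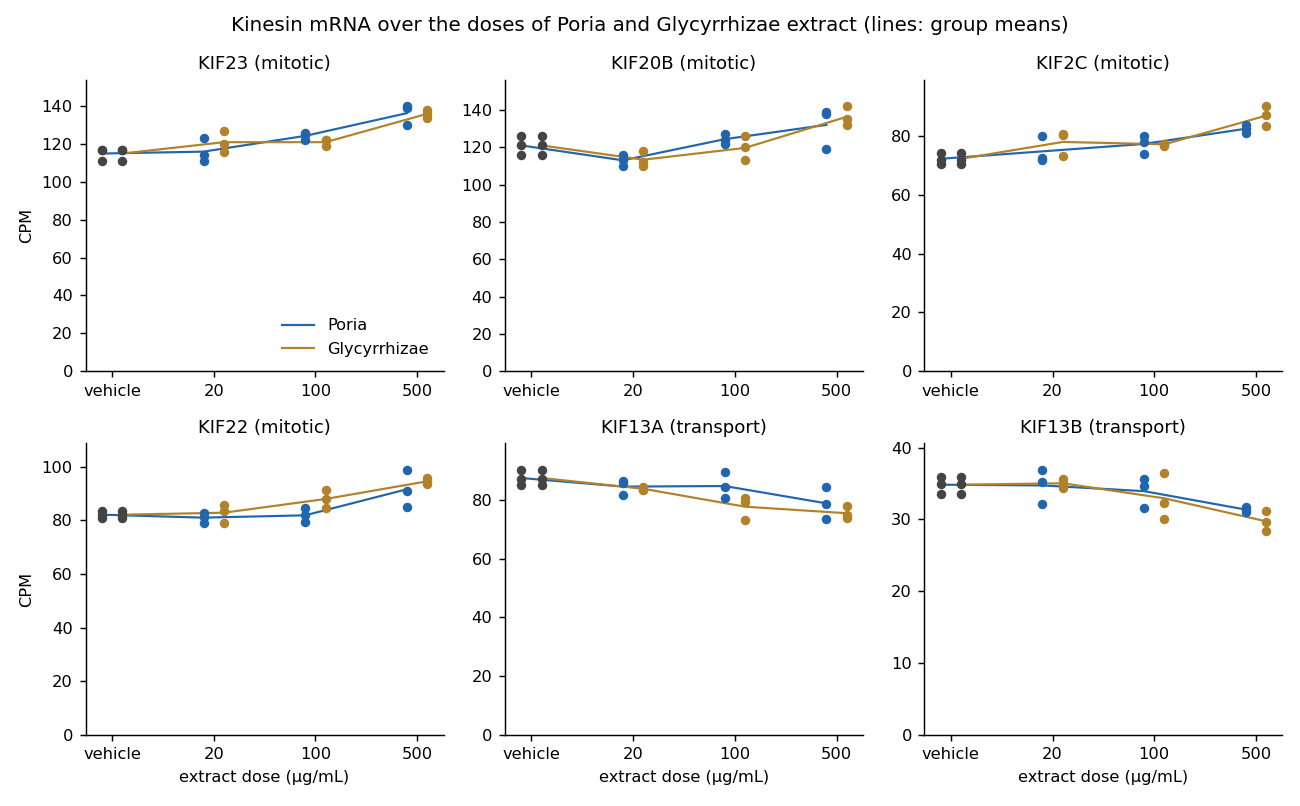
CPM of selected kinesins in each library (points) at 20, 100 and 500 µg/mL of Poria and Glycyrrhizae, with the 3 vehicle libraries at the low end, drawn once for each extract, and lines through the group means. KIF23 averages 137 CPM with Poria and 136 CPM with Glycyrrhizae at 500 µg/mL, above its level at 20 µg/mL, and KIF13B falls to 29.7 CPM with Glycyrrhizae at 500 µg/mL.

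No tested kinesin was called at any other extract dose. By edgeR, 0 of 33 were called with Poria at 20 or 100 µg/mL, where 0% and 0.0417% of all tested genes were called. An unadjusted p under 0.05 was held by 2 and 2 of the 33 members and by 834 and 1376 of all 16767 tested genes. With Atractylodis 0 of 33 were called at 20, 100 and 500 µg/mL, with 0.137%, 0.364% and 0.25% of all genes called. Unadjusted, 3, 4 and 4 members had a p under 0.05, as did 1989, 2324 and 2473 of the 16767 genes. With Glycyrrhizae 0 of 33 were called at 20 and 100 µg/mL, with 0.37% and 0.34% of all genes called. There 4 and 4 members, and 3049 and 2586 of the 16767 genes, had an unadjusted p under 0.05. With Ginseng 0 of 33 were called at 20, 100 and 500 µg/mL, with 0%, 0% and 0.352% of all genes called. Unadjusted, 4, 3 and 4 members had a p under 0.05, as did 2567, 1773 and 2622 of the 16767 genes.

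Angelicae and Paeoniae gave the same count. With Angelicae 0 of 33 were called at 20, 100 and 500 µg/mL, with 0.173%, 0.00596% and 0.161% of all genes called. An unadjusted edgeR p under 0.05 was held by 2, 5 and 5 members and by 3067, 2036 and 2683 of all 16767 tested genes. With Paeoniae 0 of 33 were called at these doses, with 0%, 0.0477% and 0.161% of all genes called. Unadjusted, 2, 6 and 3 members had a p under 0.05, as did 1163, 2300 and 1893 of the 16767 genes. DESeq2 called 1 kinesin with Glycyrrhizae at 100 µg/mL, 1 with Angelicae at 20 µg/mL and 0 in the rest of these groups. The share of all genes called by DESeq2 is not given here. KIFC2 was the member with the smallest adjusted p in several of these groups. Its means over the extract groups were 6.69 to 8.59 CPM, against 6.23 ± 0.204 CPM in vehicle, and none of these differences was called by edgeR. At 500 against 20 µg/mL edgeR and DESeq2 called 0 of 33 with Atractylodis, Ginseng, Angelicae and Paeoniae, where edgeR called 0%, 0%, 0.0179% and 0.0358% of all genes. The unadjusted edgeR p was under 0.05 for 1, 1, 2 and 0 members, and for 857, 672, 499 and 564 of the 16767 genes.

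**Figure D5:**
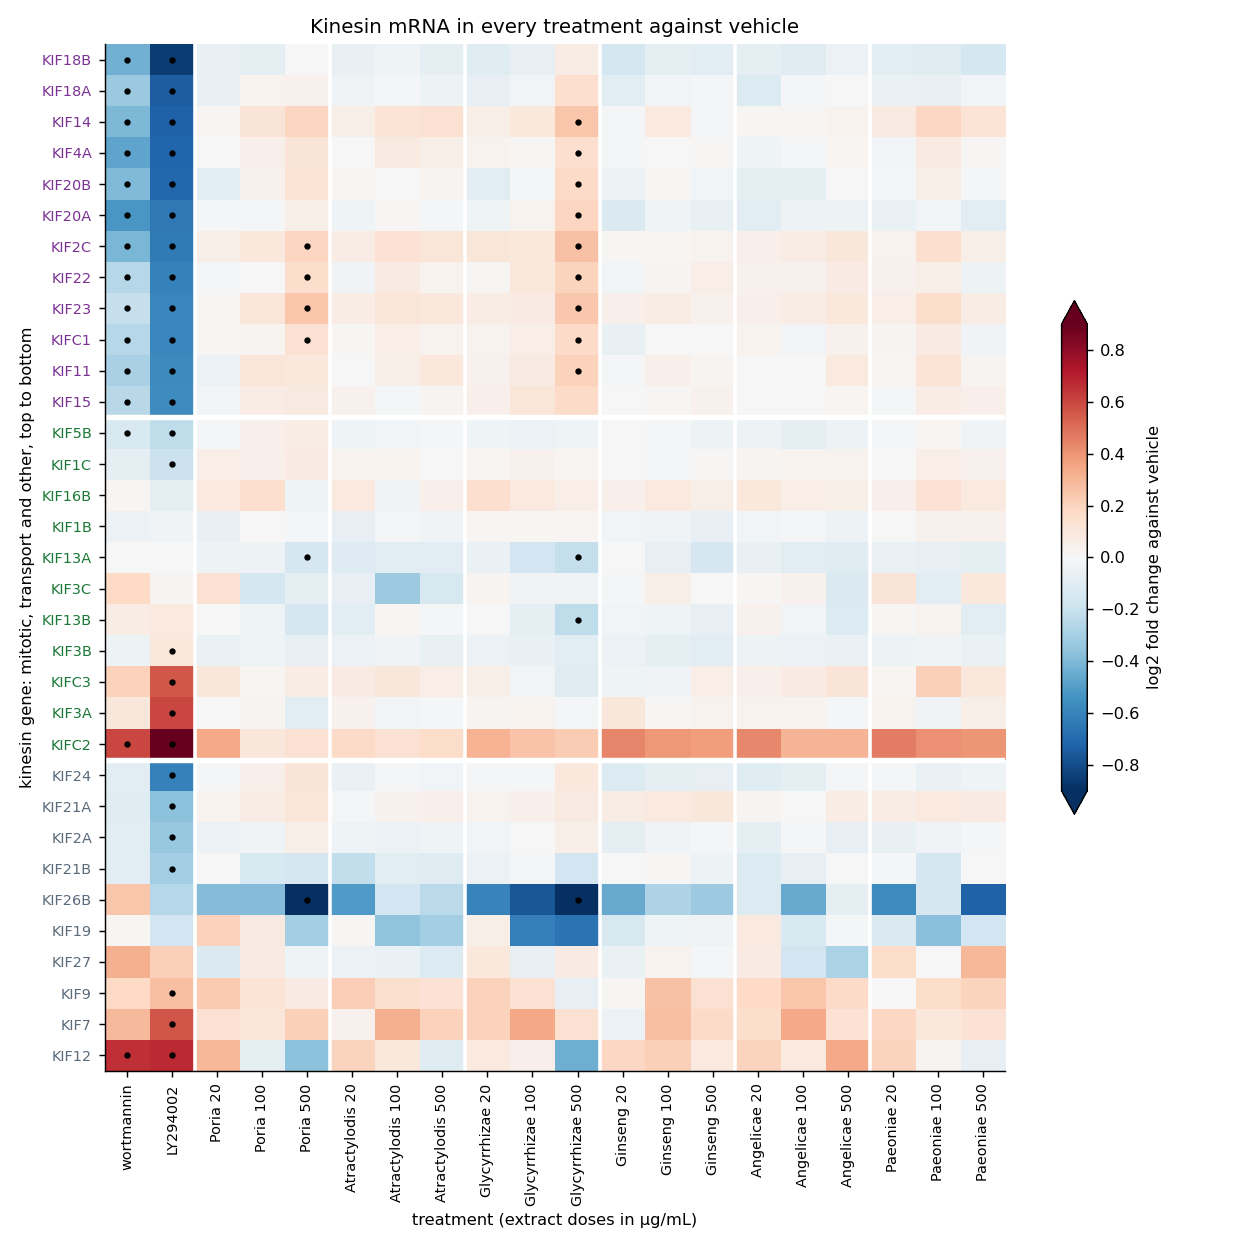
Log2 fold change against vehicle of each tested kinesin (rows, by role) in the 20 treated groups (columns), with dots on calls and a colour scale that saturates at both ends. The inhibitor columns are low over all 12 mitotic rows, and the extract columns with mitotic calls are Poria and Glycyrrhizae at 500 µg/mL.

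Whether the dose effect differed between extracts of a code set was tested directly, and no kinesin was called. For Poria minus Atractylodis the mitotic median of the difference was 0.10 (0.04 to 0.21), with 0.394% of all genes called. An unadjusted p under 0.05 was found for 4 of 33 members and for 1356 of all 16767 tested genes. KIF23 came nearest, at 0.21 ± 0.06 (adjusted p = 0.139). For Glycyrrhizae minus Ginseng the mitotic median was 0.13 (0.06 to 0.25), with KIF20B at 0.25 ± 0.08 (adjusted p = 0.369) and 0.0477% of all genes called. There 9 of 33 members and 1047 of the 16767 genes had an unadjusted p under 0.05. For Angelicae minus Paeoniae the mitotic median was 0.07 (−0.05 to 0.12), with 0% of all genes called. Here 0 of 33 members and 410 of the 16767 genes had an unadjusted p under 0.05. So a dose effect particular to Poria or Glycyrrhizae was not shown for any of the 33 tested kinesins. These differences were tested by edgeR only.

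The mRNAs of proteins that work with mitotic kinesins mostly moved in the direction of the kinesins. Of 28 spindle and midzone partners 25 were called lower after wortmannin (median −0.38) and 27 after LY294002 (median −0.67), with 0 called higher in either, where 7.46% and 20.5% of all tested genes were called lower. CENPE, a kinetochore kinesin under another name, had 48.8 ± 1.12 CPM after wortmannin and 40.1 ± 1.27 CPM after LY294002, against 74.4 ± 3.24 CPM in vehicle (SD, n = 3 each), or −0.61 ± 0.07 and −0.89 ± 0.07 (adjusted p = 2.09e-09 and 4.04e-15). The mitotic kinases PLK1 and AURKA changed by −0.63 each after wortmannin and by −1.08 and −0.98 after LY294002. Called higher were 17 of 28 with Glycyrrhizae at 500 µg/mL against vehicle (median 0.18) and 12 with Poria (median 0.14), where 3.65% and 4.6% of all tested genes were called higher, with the checkpoint gene MAD2L1 at 0.34 in both. At 500 against 20 µg/mL 13 were called higher with Glycyrrhizae and 7 with Poria, where 1.83% and 3.21% of all tested genes were.

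Among 13 cell cycle transcription regulators (FOXM1, MYBL2, DREAM and MuvB subunits, and the G1/S activators E2F1 and E2F2), 3 were called lower and 1 higher after wortmannin, where 7.46% of all tested genes were called lower and 6.26% higher. After LY294002 11 were called lower and 2 higher, where 20.5% and 18.7% of all tested genes were, and the counts higher are near those shares. FOXM1 had 154 ± 13.1 CPM after wortmannin and 109 ± 10.6 CPM after LY294002, against 219 ± 10.8 CPM in vehicle, with a change of −0.50 after wortmannin (adjusted p = 1.3e-09) and a larger drop after LY294002 (adjusted p = 9.28e-20). MYBL2 changed by −0.69 after LY294002, and E2F2 by 0.30 after wortmannin. With Glycyrrhizae 3 were called higher at 500 than at 20 µg/mL, where 1.83% of all tested genes were. They were MYBL2 by 0.29, FOXM1 by 0.21 and LIN54 by 0.18.

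For the partners of transport kinesins the counts are read against 6.26% of all tested genes called higher and 7.46% lower after wortmannin, and 18.7% higher and 20.5% lower after LY294002. Of 19 tested light chains and cargo adaptors 3 were called higher and 0 lower after wortmannin, and 6 higher and 2 lower after LY294002, the last below the share of all genes. The light chain KLC4 rose by 0.23 after wortmannin and 0.39 after LY294002, while KLC2 changed by −0.47 after LY294002. KLC4 was lower at 500 than at 20 µg/mL by −0.34 with Poria and −0.30 with Glycyrrhizae. Its dose effect differed between Poria and Atractylodis, by −0.38 ± 0.07 (adjusted p = 0.00203). Of 23 dynein and dynactin genes, the minus-end motor complex, 0 were called higher and 3 lower after wortmannin, and 7 higher and 4 lower after LY294002, where the count lower is again no more than that share. Of 11 tubulins 1 was called higher and 6 lower after wortmannin, and 0 higher and 6 lower after LY294002, with TUBA1B, a major alpha-tubulin, at 1417 ± 135 CPM after wortmannin and 989 ± 72.5 CPM after LY294002, against 1961 ± 98.1 CPM in vehicle.

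Over the 21 group means the mitotic kinesins ran closely together, with a median Pearson r of 0.96 over 66 pairs (0.92 to 0.99), while 55 pairs of transport members had a median of 0.06 (−0.88 to 0.84). Without the inhibitors, over 19 groups, the mitotic median was 0.73 (0.42 to 0.92). The members outside the mitotic list most like its mean were KIF21A at r = 0.94, KIF1C and KIF2A at 0.91 and KIF24 at 0.89, and those most unlike it were KIF3A at −0.91 and KIFC3 at −0.84. Without the inhibitors KIF21A had 0.41, KIF1C 0.29, KIF2A 0.73, KIF24 0.78, KIF3A −0.66 and KIFC3 −0.20. Most unlike the mitotic mean there were KIF12 at −0.80 and KIF13A at −0.71. These group means share vehicle, depth and scaling, and the values are descriptions.

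The libraries held epithelial mRNA, and marker levels of HT29 differed between groups. Of 7 epithelial markers 3 were called higher after wortmannin and 6 after LY294002, where 6.26% and 18.7% of all tested genes were. Summed levels of the 7 were 13118 to 13631 CPM after wortmannin and 14475 to 16379 CPM after LY294002, against 11568 to 12028 CPM in vehicle. Of the leukocyte markers LYZ made up nearly all of a sum of 1821 to 1890 CPM after wortmannin and 1975 to 2548 CPM after LY294002, against 1371 to 1435 CPM in vehicle, while CD14 had 2.6 to 6.1 CPM over all libraries and PTPRC and CD3E never reached 1 CPM. Fibroblast markers summed to at most 2.98 CPM, the endothelial markers VWF, CDH5 and KDR never reached 1 CPM while PECAM1 had 0.9 to 2.27 CPM, and of the 4 neuronal markers SNAP25 and STMN2 were at 0. The motile cilium markers summed to 14.5 to 17.1 CPM after LY294002, against 11.4 to 12.6 CPM in vehicle. The part of these shifts in the kinesin results was not tested.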

How the data were processed

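RNA was measured by mRNA sequencing from a directional library kit (MGI) in 60 HT29 libraries of 21 groups. The authors deposited expected counts per gene, made with RSEM 1.3.3 after FastQC 0.11.9, Trim Galore 0.6.5 and STAR 2.7.3a on GRCh38, per the submitters' processing notes. Annotation release and strand setting were not given in the sources used here. Of the values above 0, 24.2% were not whole, and expected counts were rounded for the tests. The table has 213 further columns that were not used. Exon lengths and coordinates came from GENCODE 29, symbols from a separate list of gene names and promoters from RefSeq (GRCh38.p14). Of the 60675 IDs 41209 had a symbol.

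Library sizes were scaled by TMM (factors 0.969 to 1.03) and genes filtered with filterByExpr (minimum count 10, minimum total 15), which left 16767. edgeR 4.0.16 (R 4.3.3) was fitted once to all libraries with a mean per group, 39 residual degrees of freedom and a common biological coefficient of variation of 0.057. Quasi-likelihood tests were adjusted by Benjamini-Hochberg over all genes tested, with 0.05 as the threshold. The pipeline was tested on simulated data. DESeq2 1.42.0, RLE size factors, no filter, only the groups compared, a replicate block and leaving out each library were the alternatives. No pair of replicates differed by as little as counting noise (lowest median spread 0.695, against 0.455 for noise alone, over 57 pairs).

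Kinesins named per comparison are up to 8 mitotic and up to 6 others, called, with the largest absolute change and at least 1 CPM on average, plus the most abundant mitotic and transport member, and further members where a call, a level or a dose series turned on them. Other lists name up to 3 called genes a comparison. Members and lists were chosen with earlier results of these data known.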

Additional observations from a re-analysis of the deposited data

How the results depend on the processing

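None of 67 named kinesin results changed sign under any alternative, and 26 lost their call under at least 1. Shares of all genes called under the alternatives are not given in this section. Its counts therefore cannot be set against a general change in calls. RLE size factors moved 0 of 30 counts of called mitotic or transport members by over 1.5 times, and DESeq2 moved 3. In a fit of only the 2 groups compared, transport calls were 1 for wortmannin against vehicle, 1 for wortmannin against LY294002 and 0 for Poria 500 µg/mL against vehicle, and mitotic calls were 1 for Poria 500 µg/mL against vehicle, 0 for Poria 500 against 20 µg/mL and 3 for Glycyrrhizae 500 against 20 µg/mL. Without the low-count filter, transport calls were 1 for wortmannin against vehicle, 2 for wortmannin against LY294002, 0 for Poria 500 µg/mL and 1 for Ginseng 500 µg/mL against vehicle. With DESeq2 at 500 against 20 µg/mL, mitotic calls were 5 for Poria and 10 for Glycyrrhizae, and transport calls 2 for Glycyrrhizae. The cause of these moves was not tested.

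Same-numbered replicates did not deviate together (0 of 27 comparisons had every correlation over 0.1), so the numbers are taken as names. With the replicate block at 500 against 20 µg/mL, mitotic calls were 5 for Poria and 11 for Glycyrrhizae, and transport calls 2 for Glycyrrhizae. The block moved no other mitotic or transport count by over 1.5 times. Calls of other kinesins went from 1 to 2 for Poria and for Glycyrrhizae at 500 µg/mL against vehicle. They went from 0 to 2 for Glycyrrhizae at 500 against 20 µg/mL.

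Leaving out 1 library, mitotic calls ranged over 11 to 12 for wortmannin, 12 for LY294002, 1 to 4 for Poria and 6 to 8 for Glycyrrhizae at 500 µg/mL against vehicle, and 1 to 5 for Poria and 1 to 8 for Glycyrrhizae at 500 against 20 µg/mL. Transport calls ranged over 1 to 3 for wortmannin, 0 to 1 for Poria and 1 to 2 for Glycyrrhizae against vehicle, and 0 to 1 for both at 500 against 20 µg/mL. Groups of 2 or 3 libraries limit precision most for members of a few CPM, such as KIF12, KIF7 and KIF26B, and a member without a call there was not shown to be level.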
